A study of Mus musculus with 18 samples.

Results

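The amyloid precursor family and its secretases were followed through brain slices, polysomes and drug treatment in 8 mRNAs, chosen by symbol from a table of 13973 genes. They are the precursors App, Aplp1 and Aplp2, the beta-secretase Bace1, the gamma-secretase subunits Psen2, Ncstn and Aph1a, and the alpha-secretase Adam10. All 8 were in the table, with 21 to 32986 estimated counts per library, and all 8 passed the filter on low counts. The slices of hippocampus and cortex came from male C57BL/6N mice aged 28 to 35 days, either wild type (WT) or lacking Fmr1 in all cells (KO). Before lysis they spent 30 min with homoharringtonine (HHT) at 20 µM or with its DMSO vehicle. HHT is a drug that halts newly joined ribosomes at the start codon, while elongating ribosomes finish and leave. RNA was sequenced from each cleared lysate (input) and from its medium and heavy polysomes, 2 pools of gradient fractions chosen by an FMRP immunoblot. There were 2 HHT lysates and 1 vehicle lysate per genotype, hence 18 libraries in 12 groups, and each replicate pooled 10 slices from 2 or 3 mice.

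The precursors are membrane proteins with a large outer domain, a single span and a short cytoplasmic tail. ADAM10 or BACE1 first cuts the outer domain free, and gamma-secretase then cuts within the span. After BACE1, that second cut of APP releases amyloid-beta, the peptide that builds plaques in Alzheimer's disease, whereas the ADAM10 cut falls inside the amyloid-beta stretch and prevents its release. All 8 proteins are made on ribosomes bound to the endoplasmic reticulum. App mRNA is among the mRNAs known to bind FMRP, the translation regulator that Fmr1 encodes.

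The span of the precursors is where gamma-secretase acts, and its coding sequence shows how the 3 family members differ. In each line below, capitals mark the codons of the 19 residues with the highest mean hydropathy in the last stretch that reached a mean of 1.6, with 15 bases on either side, from GENCODE M21 coding sequences on GRCm38. The marked codons of App begin at codon 705 of 770, that of Aplp1 at codon 589 of 654 and that of Aplp2 at codon 686 of 751. In each of the 3, 47 codons follow them.
App span: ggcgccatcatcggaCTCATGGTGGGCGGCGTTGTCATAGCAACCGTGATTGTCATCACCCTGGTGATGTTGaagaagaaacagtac
Aplp1 span: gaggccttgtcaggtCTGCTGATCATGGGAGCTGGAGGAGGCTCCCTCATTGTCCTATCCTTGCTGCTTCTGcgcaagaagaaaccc
Aplp2 span: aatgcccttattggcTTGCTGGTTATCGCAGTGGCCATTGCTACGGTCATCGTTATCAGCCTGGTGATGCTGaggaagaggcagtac

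The first 90 coding bases are shown for 4 of the mRNAs, because HHT holds ribosomes there and because this is where a signal sequence would lie. Here capitals mark codons of the first 19 residues that reached the threshold. They open at codon 1 in Adam10, at codon 2 in Aph1a and at codon 3 in Aplp2. In App the first 19 residues that reached it open at codon 698 and overlap the span shown above, so its start is printed without capitals. The capitals mark hydropathy only and are not calls of signal sequences. A mean over 19 residues can miss a shorter hydrophobic stretch, so a start without capitals does not show that a signal sequence is absent.
App start: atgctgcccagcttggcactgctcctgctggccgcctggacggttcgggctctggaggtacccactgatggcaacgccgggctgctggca
Aplp2 start: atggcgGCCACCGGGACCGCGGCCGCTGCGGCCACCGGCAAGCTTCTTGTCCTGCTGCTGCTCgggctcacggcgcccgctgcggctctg
Aph1a start: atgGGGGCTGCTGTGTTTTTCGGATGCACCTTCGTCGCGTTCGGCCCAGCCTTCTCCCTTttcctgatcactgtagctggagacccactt
Adam10 start: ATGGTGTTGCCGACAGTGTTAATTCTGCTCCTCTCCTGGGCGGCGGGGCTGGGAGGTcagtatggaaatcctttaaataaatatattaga

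On GRCm38, App lies on chromosome 16 from 84949685 to 85173766 (minus strand), Aplp1 on chromosome 7 from 30434982 to 30445535 (minus) and Aplp2 on chromosome 9 from 31149557 to 31211815 (minus). Bace1 lies on chromosome 9 from 45838580 to 45864399 (plus) and Adam10 on the same chromosome from 70678997 to 70780229 (plus). Psen2 and Ncstn share chromosome 1, at 180227004 to 180263438 and 172066013 to 172082795 (both minus), and Aph1a is on chromosome 3 from 95893969 to 95898288 (plus). Counts cover all exons of a gene, so isoforms are not separated. Reads that Aph1a shares with its close paralogs Aph1b and Aph1c may have been split in ways the table does not show.

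Libraries held 6226237 to 13834652 counts, and every library was made from 200 ng of RNA, so a value is relative to the other RNA in that fraction and not an amount per slice. Levels are given as CPM, counts divided by library size with the TMM scaling of edgeR. The words rose and fell are kept for genes whose Benjamini-Hochberg adjusted p in edgeR was under 0.05. Fmr1 ran from 4.62 to 8.53 CPM in the 9 KO libraries and from 13.9 to 32.2 CPM in the 9 WT libraries. The HHT replicate 2 libraries of both genotypes stood apart: their lowest deposited expression value was 0.772 to 0.904, against 1.004 to 1.043 in all other libraries. The summed CPM of the 8 mRNAs was 3819 to 4136 in the HHT replicate 2 libraries, 5084 to 5369 in HHT replicate 1 and 1275 to 1994 in vehicle. Markers of the tissue's cell types were all present, with 0 of 6 at zero in each list. From vehicle to HHT input, the summed CPM of 6 neuron markers went from 6920 to 7340 up to 8290 to 9190. That of 6 astrocyte markers went from 1100 to 1370 up to 1630 to 2280, that of 6 microglia markers from 47 to 72.2 up to 85.8 to 109, that of 6 oligodendrocyte markers from 3100 to 3310 up to 3580 to 4180, and that of 6 endothelial markers from 16.6 to 17.8 up to 37.7 to 47. In heavy polysomes the neuron sum was 6150 to 6850 in vehicle and 8230 to 9990 under HHT, the astrocyte sum 1180 to 1360 and 2280 to 3300, and the endothelial sum 15.8 to 17.5 and 21.6 to 34. The oligodendrocyte sum was 3170 to 3230 and 3380 to 3770, whereas the microglia sum was 46.5 to 50.5 in vehicle and 30.3 to 49.4 under HHT. In medium polysomes all 5 sums were above vehicle in every HHT library. Single markers moved both ways: of the 6 in each list, 2 neuron, 2 astrocyte and 1 oligodendrocyte markers fell in heavy polysomes, Gfap by 1.22 on the log2 scale. Markers that fell in medium were Gfap (-1.17), the oligodendrocyte genes Mbp (-0.89) and Mobp (-0.72), and the microglia gene Aif1 (-1.28). The part of these marker levels in the results was not tested, and in such bulk samples fewer cells of a type cannot be told apart from less RNA per cell.

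Levels of different genes were set side by side only per transcript length, with the deposited length-normalised values, called rescaled TPM because 10 of 18 columns exceed the total that TPM should have. In vehicle input, Aplp1 (710 in WT, 1000 in KO) and App (514 and 793) led, and their ranges overlapped. Aplp2 followed at 117 and 162 and Bace1 at 53.4 and 68.2. Ncstn (27.2 and 40.2) overlapped with Aph1a (24.9 and 31.3), while Adam10 (16.4 and 20.5) lay above Psen2 (8.49 and 11.8). In HHT input the medians were 1980 for App, 1940 for Aplp1, 422 for Aplp2, 91.1 for Bace1, 74.4 for Ncstn, 33.8 for Aph1a, 29.8 for Adam10 and 18.6 for Psen2. There the 4 libraries overlapped between App and Aplp1, Bace1 and Ncstn, Aph1a and Adam10, and Adam10 and Psen2. The precursors were thus the abundant mRNAs of the set in both treatments, and the catalytic subunit Psen2 was the scarcest.

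The balance among the precursors differed by fraction. The App to Aplp1 ratio of rescaled TPM was 0.379 (WT) and 0.612 (KO) in vehicle medium polysomes, and 1.31 to 1.37 in the 4 HHT medium libraries. In input it was 0.723 and 0.793 in vehicle and 0.755 to 1.16 under HHT, and in heavy polysomes 1.01 and 1.06 in vehicle and 0.883 to 1.11 under HHT. Only in the medium fraction did App change sides of Aplp1 in all libraries. The App to Aplp2 ratio stayed between 3.32 and 4.97 in all 18 libraries.

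The comparison of HHT with vehicle asks which mRNAs gain or lose share in the lysate and on polysomes when initiation is blocked, and sets 4 HHT libraries against 2 vehicle libraries in each fraction, with WT and KO weighted equally. All 3 precursors rose in all 3 fractions. App stood at 519 (WT) and 816 (KO) CPM in vehicle input, and under HHT at 2460 and 1830 in WT and 2490 and 1650 in KO. In medium polysomes it stood at 340 and 614 CPM in vehicle, against 2740, 2120, 2730 and 2090 under HHT. In heavy polysomes it stood at 585 and 742 CPM, against 2320, 1670, 2350 and 1640. The lowest HHT library was above the highest vehicle library each time. On the log2 scale (± SE) App rose by 1.70 ± 0.23 in input, or 3.24-fold (adjusted p = 0.0011). In medium it rose by 2.41 ± 0.24, or 5.3-fold (adjusted p = 9.48e-05), and in heavy by 1.6 ± 0.23, or 3.03-fold (adjusted p = 6.78e-05).

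Aplp2, the ubiquitous relative of App, moved much as App did. It stood at 135 and 191 CPM in vehicle input and at 638, 422, 620 and 411 under HHT, and in medium at 99.4 and 147 against 707, 524, 676 and 482. In heavy polysomes it stood at 160 and 207 CPM against 703, 541, 712 and 567. It rose by 1.70 ± 0.24 in input (adjusted p = 0.00114), by 2.30 ± 0.25 in medium polysomes (adjusted p = 9.48e-05) and by 1.79 ± 0.24 in heavy ones (adjusted p = 4.12e-05). Aplp1, the neuronal member of the family, had its smallest change in medium polysomes. It stood at 548 and 785 CPM in vehicle input against 1670, 1320, 1640 and 1670 under HHT, at 686 and 765 against 1560, 1180, 1550 and 1210 in medium, and at 443 and 533 against 1760, 1450, 1610 and 1390 in heavy. Its changes were 1.26 ± 0.16, 0.93 ± 0.16 and 1.68 ± 0.17 (adjusted p = 0.00109, 0.000509 and 7.06e-06). No HHT library of either gene overlapped with a vehicle library.

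**Figure D1:**
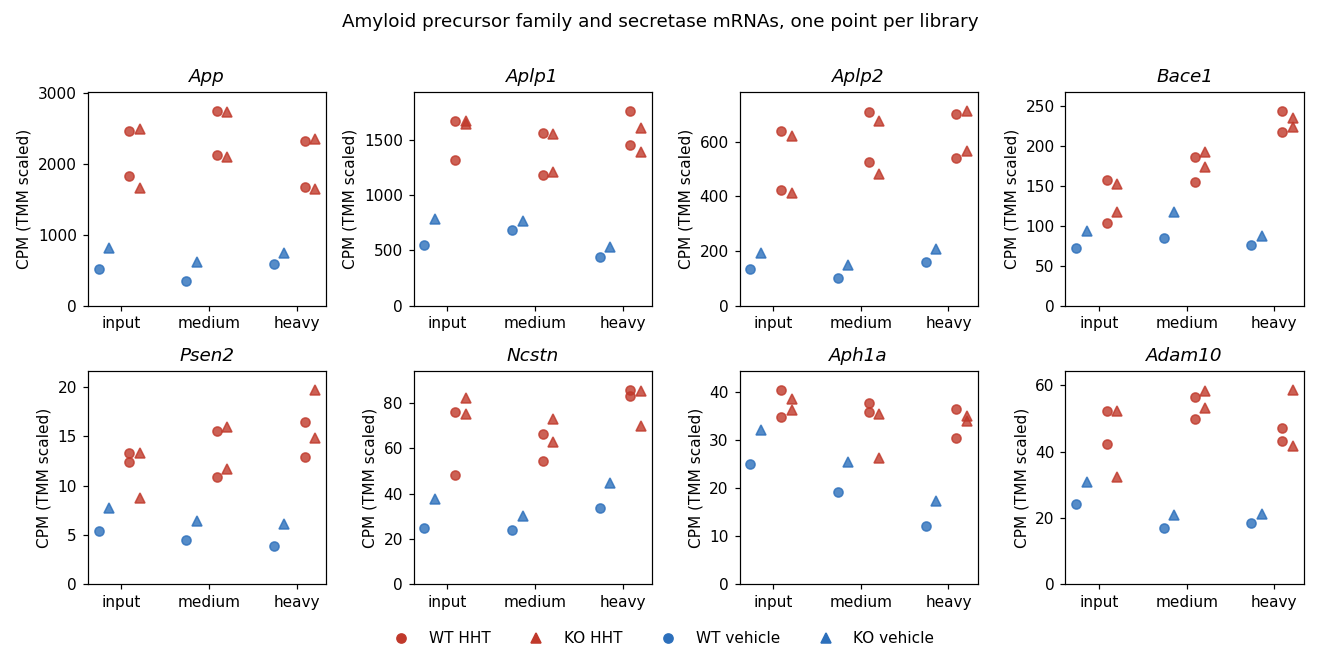
CPM of each of the 8 mRNAs (linear axis from 0) in input, medium and heavy fractions, one point per library, with circles for WT, triangles for KO, red for HHT and blue for vehicle. In every panel and fraction the 4 HHT points lie above both vehicle points, and App in medium goes from 340 and 614 CPM to between 2090 and 2740.

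The alpha- and beta-secretases rose in all 3 fractions, by 0.69 to 1.53 on the log2 scale. Bace1, the protease that opens the path to amyloid-beta, stood at 72.2 and 93.8 CPM in vehicle input and 157, 104, 153 and 117 under HHT. In heavy polysomes it stood at 76 and 86.7 CPM against 244, 218, 224 and 235. Medium polysomes held 84.9 and 118 CPM against 186, 155, 193 and 174. Bace1 rose by 0.69 ± 0.17, 0.82 ± 0.17 and 1.50 ± 0.18 from input to heavy in turn (adjusted p = 0.015, 0.00161 and 1.79e-05). Adam10, which makes the cut that spares amyloid-beta, stood at 24.2 and 30.8 CPM in vehicle input against 52.4, 42.2, 52.2 and 32.4, and at 17 and 20.8 against 56.4, 49.9, 58.4 and 53.2 in medium. In heavy polysomes it stood at 18.5 and 21.1 CPM against 47, 43.1, 58.6 and 41.7. Its changes were 0.71 ± 0.20, 1.53 ± 0.21 and 1.27 ± 0.22 (adjusted p = 0.0292, 0.000158 and 0.000245). The vehicle and HHT libraries did not overlap for either protease, but KO HHT replicate 2 was within 2 CPM of KO vehicle for Adam10 in input.

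Among the gamma-secretase subunits, Ncstn (nicastrin, which takes part in substrate selection) stood at 25 and 37.6 CPM in vehicle input against 76.1, 48.1, 82.2 and 75.1 under HHT. It stood at 23.8 and 30.3 against 66.3, 54.3, 73.1 and 62.7 in medium, and at 33.8 and 44.8 against 83.1, 85.8, 85.2 and 69.7 in heavy. It changed by 1.19 ± 0.18, 1.25 ± 0.19 and 1.06 ± 0.18 in input, medium and heavy (adjusted p = 0.00155, 0.000224 and 0.000296). Psen2, a catalytic subunit, stood at 3.88 and 6.15 CPM in vehicle heavy polysomes and at 16.5, 12.9, 14.8 and 19.7 under HHT. It changed by 0.88 ± 0.25, 1.32 ± 0.27 and 1.70 ± 0.28 (adjusted p = 0.0311, 0.00137 and 0.000215). Aph1a, a scaffold subunit, stood at 25 and 32.1 CPM in vehicle input against 40.5, 34.9, 36.4 and 38.7 under HHT, and at 12.2 and 17.4 in vehicle heavy against 36.6, 30.5, 35 and 34. Its input difference of 0.41 ± 0.15 did not pass (adjusted p = 0.0976). It rose in medium by 0.61 ± 0.15 and in heavy by 1.22 ± 0.17 (adjusted p = 0.00546 and 4.98e-05).

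In all, 7 of 8 mRNAs rose in input, where 12.2% of all genes did, 8 of 8 in medium, where 25.4% did, and 8 of 8 in heavy, where 27.1% did; 0 fell. Their median change was 1.04, 1.28 and 1.55, against medians of 0, 0.03 and 0.06 over all genes. The lowest HHT library exceeded the highest vehicle library for 8 of 8 mRNAs in each fraction, as for 18.4%, 33.9% and 35.2% of all genes, and the reverse order was seen for 0 of 8 and for 11.3%, 31.5% and 32.9%. Genes that fell made up 0.215%, 21.5% and 24.7%. Without WT HHT replicate 1 the input calls of Bace1, Psen2 and Adam10 were lost (adjusted p = 0.0553, 0.0837 and 0.138), and likewise without KO HHT replicate 1 (adjusted p = 0.0939, 0.107 and 0.0892). With the HHT replicate 2 lysates only, App, Aplp1, Aplp2 and Ncstn still passed in input, and App stood at 1.36, against 1.89 with the replicate 1 lysates only.

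**Figure D2:**
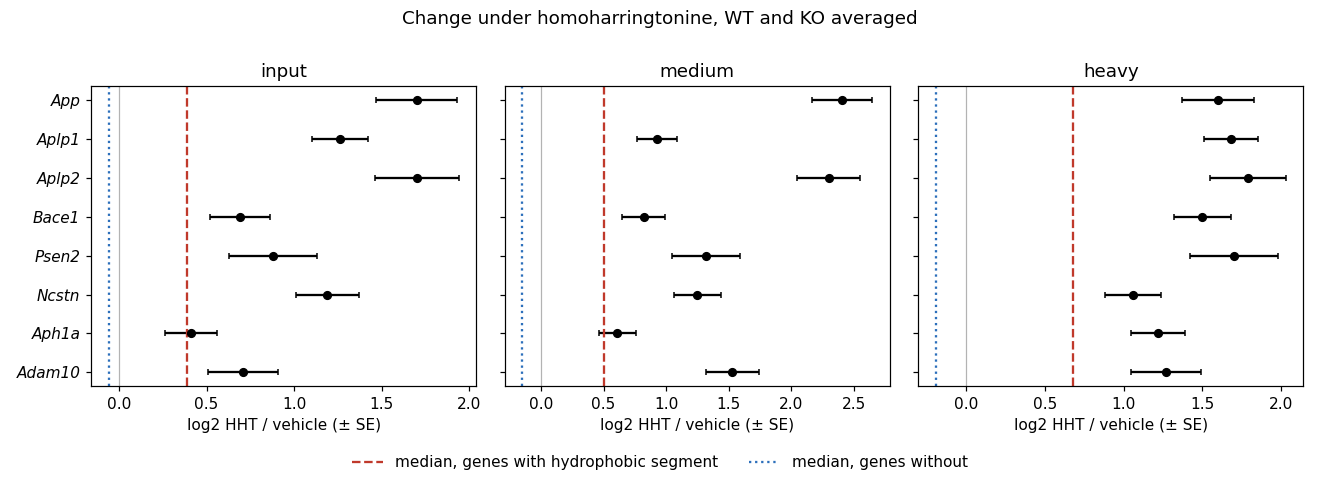
Change from vehicle to HHT (log2, ± SE, WT and KO averaged) for the 8 mRNAs in each fraction; the dashed red line is the median of genes with a predicted hydrophobic segment and the dotted blue line that of genes without one. App and Aplp2 lie farthest right in medium, at 2.41 and 2.30, and Aph1a lies near the dashed line in input and medium.

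All 8 proteins carry at least 1 predicted hydrophobic segment, a feature of 36.3% of the 13047 genes with a matched coding sequence, so they were also read against that class. Of genes with a segment, 31.9% rose in input, 49.2% in medium and 53.1% in heavy, with median changes of 0.39, 0.50 and 0.68. Genes without one had medians of -0.06, -0.15 and -0.19. Among genes with a segment, App stood at percentile 99.4 in input, 99.6 in medium and 88.5 in heavy, and Aplp2 at 99.4, 99.4 and 93.6. Aplp1 stood at 94.4, 72.6 and 90.7, and Ncstn at 92.7, 86.1 and 65.5. Psen2 stood at 78.9, 87.8 and 91.5 and Adam10 at 69.6, 92.7 and 74.6. Bace1 stood at 68.2, 67.2 and 85, and Aph1a at 51.4, 55.5 and 72.3, so Aph1a in input and medium was close to the middle of its class.

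Whether loss of FMRP changes these mRNAs was asked under HHT with 2 KO against 2 WT libraries per fraction. App, whose mRNA is known to bind FMRP, stood in KO at -0.05 relative to WT on the log2 scale in input (95% confidence interval -0.58 to 0.48). In medium the value was -0.01 (-0.54 to 0.51) and in heavy 0 (-0.53 to 0.53). The values farthest from zero among the 8 were 0.33 for Ncstn in input (-0.09 to 0.75), -0.25 for Aph1a in medium (-0.61 to 0.11) and 0.25 for Psen2 in heavy (-0.31 to 0.80). With edgeR 0 of 8 mRNAs passed in any fraction, as did 0% of all genes, and 0 of 8 had an unadjusted p under 0.05 (679, 387 and 412 of all genes did in input, medium and heavy). DESeq2 also called 0 of 8. The 0% in edgeR includes Fmr1 itself, which ran from 4.62 to 8.53 CPM in KO and from 13.9 to 32.2 CPM in WT libraries. The test thus missed a difference of that size, and its 0 of 8 does not show that the 8 mRNAs are unchanged. The intervals leave room for differences of up to about 0.5 on the log2 scale for App. The KO effect on the medium/input and heavy/input ratios under HHT passed in edgeR for 0 of 8 mRNAs, against 0% of all genes for the former and 0.00716% (1 gene, higher) for the latter. DESeq2 called 0 of 8, and 0 of 8 had an unadjusted p under 0.05, as 259 and 448 of all genes did.

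In vehicle, with 1 library per genotype and hence no test, KO was higher than WT for 8 of 8 mRNAs in all 3 fractions. The same held for 53%, 51.1% and 55.3% of all genes in input, medium and heavy, and for 68.9%, 65.9% and 66.3% of genes with a hydrophobic segment. The KO to WT difference of App was 0.65 in input, 0.85 in medium and 0.34 in heavy on the log2 scale, and the median of the 8 was 0.50, 0.44 and 0.36. Over all genes the median was 0.01, 0.01 and 0.03. Genes with a hydrophobic segment had medians of 0.12, 0.13 and 0.12. HHT lysates of the same genotype also differed: App was higher in replicate 1 than in replicate 2 by 0.42, 0.37 and 0.47 in WT and by 0.59, 0.39 and 0.52 in KO, for input, medium and heavy in turn. Across the 8 mRNAs, replicate 1 was higher for 8, 7 and 7 in WT and for 6, 8 and 6 in KO, in input, medium and heavy. It was higher for 48.4%, 51.1% and 50.9% of all genes in WT and for 46.6%, 50.3% and 50.5% in KO. Among genes with a segment the shares were 63.7%, 68.3% and 63% in WT and 59.7%, 64.9% and 58.4% in KO.

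The change from vehicle to HHT in App was 2.05 ± 0.33 in WT alone and 1.34 ± 0.32 in KO alone in input (adjusted p = 0.00771 and 0.106), and 2.84 ± 0.35 and 1.97 ± 0.33 in medium (adjusted p = 0.00105 and 0.0115). In heavy it was 1.77 ± 0.33 and 1.43 ± 0.32 (adjusted p = 0.00102 and 0.00399). In KO alone 0 of 8 mRNAs and 0 of all genes passed in input, 5 of 8 in medium, where 10.6% of all genes rose, and 8 of 8 in heavy, where 19% did. In WT alone 4, 8 and 8 passed, where 6.81%, 20.7% and 20.5% of all genes rose in input, medium and heavy. The test of the difference between genotypes itself (genotype by treatment) passed for 0 of 8 mRNAs and 0% of all genes in each fraction, with 0 of 8 at an unadjusted p under 0.05 in edgeR (214, 187 and 104 of all genes) and 0 of 8 called by DESeq2. All 24 of these 24 differences were below zero, meaning a smaller change in KO, from -0.86 for App in medium to -0.04 for Adam10 in heavy. Over all genes 53%, 52.7% and 54.9% were below zero in input, medium and heavy. The medians were -0.44, -0.42 and -0.35 for the 8 mRNAs and -0.11, -0.14 and -0.11 for genes with a hydrophobic segment. Genes without one had medians of 0.01, 0.03 and 0. Each difference subtracts the single-library vehicle difference of KO from WT given above, which was positive for 8 of 8 mRNAs in each fraction. The 3 fractions share lysates, and each vehicle arm is a single lysate, so these signs are not separate observations.

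**Figure D3:**
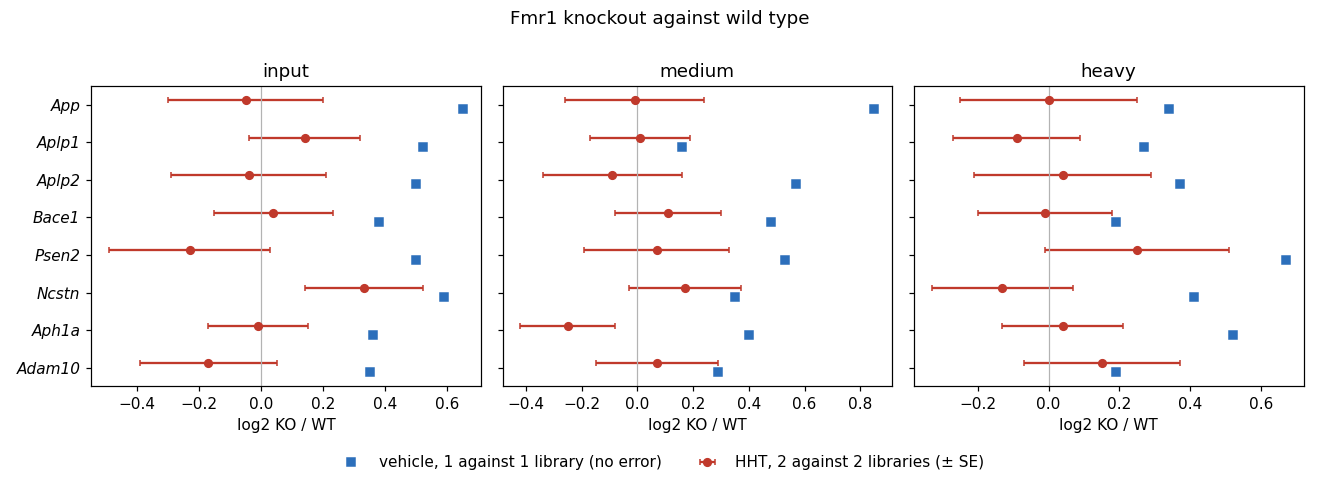
KO against WT (log2) for the 8 mRNAs in each fraction, with red circles for HHT (2 against 2 libraries, ± SE) and blue squares for vehicle (1 against 1 library, no error). The HHT values lie between -0.25 and 0.33 around zero, and all vehicle squares lie right of zero, up to 0.85 for App in medium.

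How each mRNA is spread along the gradient was read as the ratio of CPM between fractions of a lysate. Under HHT, Bace1 was the 1 of 8 that rose from each fraction to the next. Its heavy/input ratio was 1.56 and 2.09 in WT and 1.47 and 2.02 in KO, against 1.05 and 0.924 in vehicle. On the log2 scale Bace1 rose by 0.41 ± 0.13 from input to medium (adjusted p = 0.0319), 0.38 ± 0.13 from medium to heavy (adjusted p = 0.0378) and 0.79 ± 0.13 from input to heavy (adjusted p = 0.000224). Of all genes 13.4%, 19% and 27.6% rose in those contrasts and 17%, 16.8% and 30.4% fell. The first 2 of these calls were lost without WT HHT replicate 2, without KO HHT replicate 1 or without KO HHT replicate 2, with adjusted p from 0.0547 to 0.206.

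With the lysate as a block, which is a true pairing here because the fractions of a lysate share its RNA, 3 of 8 passed in each contrast under HHT. These counts are close to or below the share of all genes that passed in either direction, which was 17.4% up and 19.5% down from input to medium, 29.1% and 32% from input to heavy, and 21.5% and 19.3% from medium to heavy. From input to medium these were App (0.21, adjusted p = 0.0313), Bace1 (0.43, adjusted p = 0.00401) and Adam10 (0.30, adjusted p = 0.0363). From input to heavy they were Aplp2 (0.29, adjusted p = 0.00514), Bace1 (0.81, adjusted p = 1e-05) and Psen2 (0.44, adjusted p = 0.034). From medium to heavy Bace1 (0.39, adjusted p = 0.00554) and Ncstn (0.35, adjusted p = 0.0202) rose and App fell (-0.29, adjusted p = 0.00508). Unblocked, App stood at -0.28 ± 0.17 from medium to heavy (adjusted p = 0.231).

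In vehicle the pattern was another one, with 2 lysates. Aph1a fell from input to heavy by 0.96 ± 0.19 on the log2 scale (adjusted p = 0.000981), where 21.7% of all genes fell and 24.8% rose, with ratios of 0.487 in WT and 0.544 in KO. From medium to heavy Aph1a stood at -0.60 ± 0.19 and Aplp1 at -0.58 ± 0.18 (adjusted p = 0.0163 and 0.0143), where 28.1% of all genes fell. Ncstn rose by 0.54 ± 0.21 (adjusted p = 0.0472), where 25.9% rose, a call lost without KO HHT replicate 1 or 2, whose spread enters the fit (adjusted p = 0.0679 and 0.0694). App stood at 0.53 ± 0.25 (adjusted p = 0.0885) from medium to heavy and at -0.51 ± 0.25 from input to medium (adjusted p = 0.167). From input to medium 0 of 8 passed in edgeR, with 1 of 8 at an unadjusted p under 0.05, and 0 of 8 in DESeq2, where edgeR had 10.2% of all genes higher and 9.5% lower.

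The difference between these ratios under HHT and in vehicle was tested directly as a drug shift, for which 4 HHT lysates stand against 2 vehicle lysates. The medium/input ratio of App was 0.655 and 0.752 in vehicle and 1.12, 1.16, 1.1 and 1.26 under HHT, and that of Adam10 was 0.703 and 0.677 against 1.08, 1.18, 1.12 and 1.64. Aplp2 had 0.734 and 0.77 against 1.11, 1.24, 1.09 and 1.17. All HHT lysates lay above both vehicle lysates for these 3 and Psen2, 4 of 8 in all, as for 24.4% of all genes, and below both for Aplp1, 1 of 8, as for 25.6%. Without the block 0 of 8 passed in edgeR, where 7.09% of all genes shifted up and 10.2% down (App 0.71 ± 0.30, adjusted p = 0.129; Aplp2 0.60 ± 0.31, adjusted p = 0.218; Adam10 0.82 ± 0.28, adjusted p = 0.0629). At an unadjusted p under 0.05 there were 2 of 8, and DESeq2 called 1, Adam10 (0.84, adjusted p = 0.0361). Adam10 also passed without KO HHT replicate 1 (0.99, adjusted p = 0.0175). With the lysate block all 3 shifted up, App by 0.72 ± 0.12 (adjusted p = 0.00156), Aplp2 by 0.61 ± 0.14 (adjusted p = 0.00626) and Adam10 by 0.84 ± 0.20 (adjusted p = 0.00805), where 10.6% of all genes did.

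The App heavy/medium ratio was 1.72 and 1.21 in vehicle and 0.844, 0.789, 0.859 and 0.787 under HHT, while that of Aplp1 was 0.646 and 0.697 against 1.13, 1.22, 1.04 and 1.15. All HHT lysates lay above both vehicle lysates for Aplp1, Bace1 and Aph1a, 3 of 8, as for 34.4% of all genes, and below both for App, Aplp2 and Adam10, 3 of 8, as for 28.7%. The shift of Aplp1 was 0.75 ± 0.22 (adjusted p = 0.0162), that of Bace1 0.68 ± 0.23 (adjusted p = 0.0353) and that of Aph1a 0.61 ± 0.22 (adjusted p = 0.0475), where 18.1% of all genes shifted up, 18.4% down, and the median gene stood at 0.12. App stood at -0.81 ± 0.30 (adjusted p = 0.0515), and passed without KO HHT replicate 1 or 2 (adjusted p = 0.0349 and 0.0497) and in DESeq2 (-0.89, adjusted p = 0.012). With the lysate block 5 of 8 passed: the same 3 upward, and App at -0.81 ± 0.12 (adjusted p = 0.00021) and Aplp2 at -0.50 ± 0.14 (adjusted p = 0.0102) downward, where 21.7% of all genes shifted up and 20.2% down. Unblocked, the Aph1a call was lost without WT HHT replicate 1, WT HHT replicate 2 or KO HHT replicate 2 (adjusted p = 0.132, 0.055 and 0.122), and the Bace1 call without KO HHT replicate 1 or 2 (adjusted p = 0.0505 and 0.0912). From input to heavy, Bace1 shifted by 0.81 ± 0.23 (adjusted p = 0.0197) and Aph1a by 0.81 ± 0.22 (adjusted p = 0.0149), where 12.6% of all genes shifted up and 16.3% down, and the Bace1 call was lost without KO HHT replicate 2 (adjusted p = 0.0814). With the block 4 of 8 shifted up from input to heavy, Aplp1 by 0.41 (adjusted p = 0.0304) and Adam10 by 0.57 (adjusted p = 0.0426) in addition, where 16.3% of all genes shifted up and 17.8% down.

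**Figure D4:**
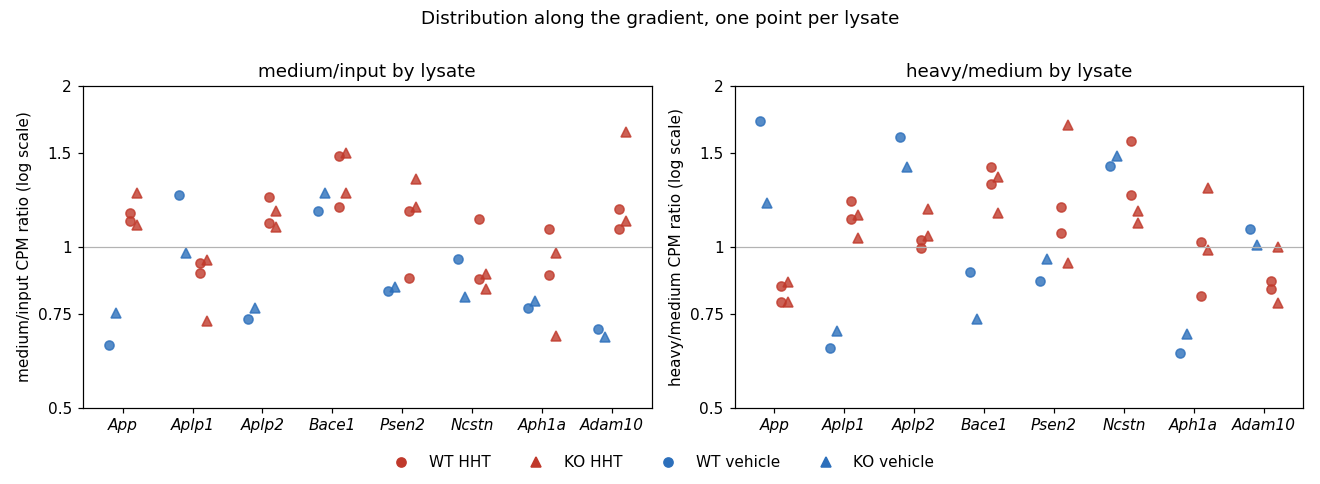
Ratio of CPM between fractions of one lysate (log axis), medium/input on the left and heavy/medium on the right, one point per lysate, with circles for WT, triangles for KO, red for HHT and blue for vehicle. In medium/input the HHT points of App, Aplp2 and Adam10 lie above their vehicle points; in heavy/medium those of App lie below (0.787 to 0.859 against 1.21 and 1.72) and those of Aplp1 above.

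The genes whose log2 CPM followed App most closely over the 18 libraries were Spock1 (a secreted proteoglycan, Pearson r = 0.993), the glutamate transporter Slc1a1 (0.992), Tm9sf2 (0.991), Sparcl1 (a secreted matrix protein, 0.991) and Stt3a (a catalytic subunit of the oligosaccharyltransferase, 0.991). Aplp2 ranked 11 of 13972 genes in likeness to App, with r = 0.984, and Adam10 ranked 56, with r = 0.963. Ncstn ranked 324, Psen2 381, Aplp1 452, Bace1 1261 and Aph1a 1468. Closest to Bace1 were the synaptic vesicle gene Sv2b (0.994), Lingo1 (0.992), the neurexin Nrxn2 (0.99) and Wbscr17 (0.989). Closest to Psen2 were Lmbr1 (0.976), the chloride transporter Clcn4-2 (0.97), the stress sensor Atf6 (0.97), Tmem9b (0.969) and Slc9a9 (0.968). These values describe libraries that share a treatment and lysates, and carry no test.

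The remaining genes of the pathway were counted by role in the same comparison of HHT with vehicle. Their counts stand beside 12.2%, 25.4% and 27.1% of all genes that rose in input, medium and heavy, and 31.9%, 49.2% and 53.1% of genes with a hydrophobic segment. Of 7 other secretase genes 2 rose in input, 4 in medium and 6 in heavy, with medians of 0.41, 0.83 and 1.23, and 0 fell, so in input and medium their share was near that of genes with a segment. The metalloprotease gene Adam9 changed by 0.90, 0.93 and 1.43. Psenen, the smallest gamma-secretase subunit, stood at 0.33, 0.34 and 0.43 and did not pass in any fraction. Of 12 BRI2 family members and BACE1 substrates 10, 10 and 11 rose, with medians of 1.39, 1.66 and 1.82. The adhesion molecule L1cam changed by 2.5, 3.26 and 3.34, and Itm2b, which encodes the APP-binding protein BRI2, by 1.31, 1.32 and 1.24. Of 16 substrates of ADAM10 or gamma-secretase 9, 15 and 14 rose, with medians of 0.79, 1.36 and 1.65. The prion protein gene Prnp changed by 1.08, 1.32 and 1.24 and the cadherin Cdh2 by 1.42, 2.00 and 2.59.

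Of 13 modulators and inhibitors of secretases 7, 8 and 9 rose, with medians of 0.60, 0.60 and 0.89, among them the reticulon Rtn3, an inhibitor of BACE1 (0.74, 1.36 and 1.06). The ones that fell were Ifitm3 (-1.62) and Gsap (-0.69), both in medium. Of 11 genes of amyloid-beta degradation and transport 8 rose in each fraction, with medians of 0.90, 0.81 and 1.1. The lysosomal protease Ctsb changed by 1.55, 1.46 and 1.25, whereas the cytosolic insulin-degrading enzyme Ide fell in heavy polysomes (-0.53, adjusted p = 0.00536) and rose in medium (0.69). Of the 18 sorting receptors and cytoplasmic adaptors of APP 3 rose in input, 4 in medium and 6 in heavy, while 0, 7 and 8 fell, with medians of -0.06, 0.05 and -0.27. Of all genes 0.215%, 21.5% and 24.7% fell, and of genes without a hydrophobic segment 0.253%, 30.2% and 34.1%. The counts of this list that rose lie near the shares of all genes. Those that fell lie above both shares in medium and heavy. The membrane receptors Sorl1 (1.33, 1.95 and 2.48) and Sort1 (1.16, 1.53 and 1.91), which sort APP within the cell, rose in each fraction. The retromer subunit Vps35 (-0.89) and the adaptor Apbb1 (-0.83) fell in heavy polysomes. Appbp2, which binds the tail of APP, rose in medium (0.75) and fell in heavy (-1.08).

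**Figure D5:**
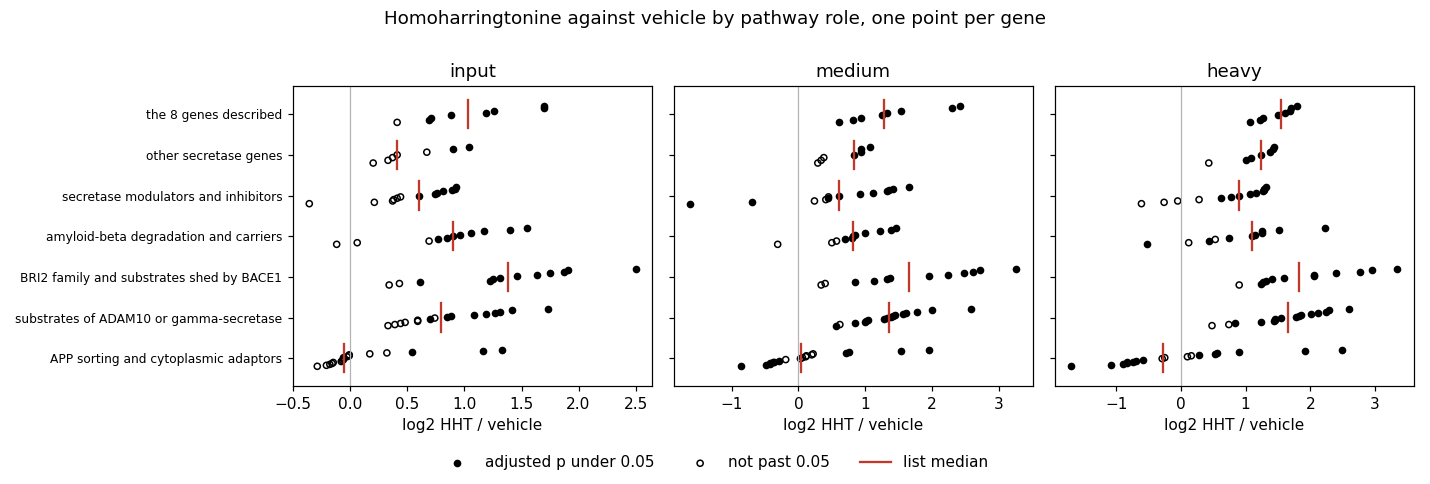
Change from vehicle to HHT (log2) of every gene in the pathway lists by fraction, one point per gene, filled where the adjusted p was under 0.05 and open where it was not, with a red line at each list's median. Lists of membrane and secreted proteins lie mostly right of zero, with medians from 0.41 to 1.82, and the sorting and adaptor list lies on both sides of it.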

How the data were processed

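RNA-seq of 18 libraries (input, medium and heavy polysome RNA) was analysed. The authors' deposited tables hold estimated counts (expected counts) and a length-normalised score, called TPM by them and rescaled TPM here, for 13973 genes. Named without roles in the submitters' processing notes are RSEM 1.2.11, DESeq2 1.16.1, Bowtie2 2.1.0, Trimmomatic 0.32 and the build mm10. The name of the deposited tables mentions 2 batches, but no source used here says which libraries each held, whether they were adjusted for, or how the genes were selected. An adjustment would make the replicate spread look smaller than it is.

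After rounding, all genes entered 1 model of 12 group means over 18 libraries with 6 residual degrees of freedom, tested by quasi-likelihood F in edgeR 4.0.16 (TMM factors; R 4.3.3). The HHT groups supply the spread, and single vehicle libraries are assumed to vary like them. Tests are 2-sided, with Benjamini-Hochberg adjustment over all genes in each of 20 comparisons. Median SEs ran from 0.14 to 0.37 on the log2 scale. Genes, lists and tests were chosen with earlier results of these data known. Named genes are the 8 described, up to 3 per list by smallest adjusted p, others where a call count of 5 or fewer or a contrast within a list is described, and the 5 nearest by correlation of log2 CPM (prior count 2). Some genes that this rule names are not reported here. Some of the named list genes were therefore chosen after their values were seen.

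Replicates are separate slice pools per the labels. Fractions of a lysate are paired by the protocol, and deviations of input and medium from their group means correlated at r = 0.349 in WT and 0.211 in KO, those of heavy and input at 0.0509 and 0.056, and those of heavy and medium at 0.0654 and 0.0142. Alternatives were DESeq2 1.42.0, RLE factors, library totals, no low-count filter, limma 3.58.1 on log2(rescaled TPM + 1) or + 0.1, each HHT lysate left out, 1 fraction, genotype or HHT replicate alone, and blocks. Hydrophobic segments were predicted from GENCODE M21 coding sequences (19-residue windows, mean hydropathy of 1.6 or more).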

Additional observations from a re-analysis of the deposited data

Results flagged for a closer look

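In 5 cases the spread of an mRNA along the gradient differed between HHT and vehicle by the test of that difference in edgeR. For heavy/input these were Bace1, with a shift of 0.81 (adjusted p = 0.0197), and Aph1a, with 0.81 (adjusted p = 0.0149). For heavy/medium they were Aplp1, with 0.75 (adjusted p = 0.0162), Bace1, with 0.68 (adjusted p = 0.0353), and Aph1a, with 0.61 (adjusted p = 0.0475). All are log2 differences, higher under HHT, from 4 HHT and 2 vehicle lysates. Shares of all genes were 12.6% up and 16.3% down for heavy/input, and 18.1% and 18.4% for heavy/medium. Both Bace1 calls and the heavy/medium call of Aph1a were lost without some single HHT lysates. With the lysate block the heavy/medium calls held, and App (-0.81, adjusted p = 0.00021) and Aplp2 (-0.50, adjusted p = 0.0102) shifted down there.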

How the results depend on the processing

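Of the 8 mRNAs, 7 rose under HHT in input. In 4 settings this was 4: limma with either pseudocount, WT alone, and HHT replicate 2 only; in KO alone it was 0, and leaving out single lysates gave 4 to 7. Library totals and the libraries of that fraction only gave 5, and HHT replicate 1 only gave 8. In medium 8 became 5 in KO alone and 7 in HHT replicate 2 only, where Aph1a was lost (0.51, adjusted p = 0.0605), and in heavy 8 held in all settings tried. Medium against input under HHT went from 1 to 0 in WT alone, KO alone and HHT replicate 1 only, to 2 in HHT replicate 2 only and to 3 with the replicate block by lysate (0 to 1 without single lysates). Heavy against input went from 1 to 2 with library totals or HHT replicate 2 only and to 3 with the block (1 to 2 without single lysates). Heavy against medium went from 1 to 0 with limma at either pseudocount, in WT or KO alone and in HHT replicate 1 only, and to 3 with the block (0 to 2). In vehicle, heavy against input went from 1 to 3 with library totals and with limma at either pseudocount (1 to 2), and heavy against medium from 3 to 0 in WT or KO alone (3 to 4). The shift of medium/input went from 0 to 1 with DESeq2, limma at either pseudocount and either HHT replicate alone, and to 3 with the block (0 to 1). That of heavy/input went from 2 to 5 with limma at either pseudocount, 0 in WT or KO alone and 4 with the block (1 to 3), and that of heavy/medium from 3 to 0 in WT or KO alone and 5 with the block (2 to 3). The comparisons of KO with WT, of genotype by treatment and of KO on ratios stayed at 0 in all settings. The causes were not tested. Library totals moved the median gene of heavy against input by -0.24 under HHT and -0.39 in vehicle, and there the App fall from medium to heavy passed (-0.46) while Bace1 did not (0.20).

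Same-numbered WT and KO HHT libraries had deviations from their group means that correlated with r = 0.323 (input), 0.165 (medium) and 0.00332 (heavy), and no label says whether they share a preparation, so a pairing was not established. A replicate block on that number called 0 of 8 in each fraction and, over all genes, up to 103 higher and 203 lower in medium. Over all genes, 1702 rose under HHT in input, and 915 and 934 with limma, 952 in WT alone and 0 in KO alone. Single vehicle lysates and 2 HHT lysates per genotype limit every comparison of genotypes, and the median SE limits detection at low counts such as those of Psen2.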

Other observations

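Heavy polysomes were also compared with input for other gene groups of the pathway. Under HHT, 9 of 12 BRI2 family members and BACE1 substrates were higher in heavy polysomes than in input and 3 were lower (edgeR, adjusted p under 0.05), with a median log2 ratio of 0.78. The 3 lower ones were the BRI2 family genes Itm2a (-1.41), Itm2b (-0.69) and Itm2c (-0.44), and the 9 higher ones the BACE1 substrates. In vehicle 0 of the 12 were higher and 1 was lower (Itm2b), with a median of -0.21. Of 16 substrates of ADAM10 or gamma-secretase, 10 were higher and 1 lower under HHT (median 0.73), and 0 and 0 in vehicle (median -0.06). The 18 sorting receptors and adaptors of APP had 9 higher and 2 lower under HHT (median 0.23), and 10 and 1 in vehicle (median 0.65). The 11 genes of amyloid-beta degradation and transport had 3 higher and 6 lower under HHT (median -0.38), and 1 and 3 in vehicle (median -0.37). Over all genes 27.6% were higher and 30.4% lower under HHT, and 24.8% and 21.7% in vehicle. The vehicle calls rest on 2 libraries per fraction and those under HHT on 4, so the call counts are not directly comparable. Gene by gene, the drug shift of heavy/input passed upward in the first list only for Scn2b, Scn4b and Nrg1. In the second it passed upward only for Efnb1, Nlgn1, Efnb2, Notch2, Cdh2 and Dcc. No gene of either list passed downward. For this shift 12.6% of all genes passed upward and 16.3% downward, and of genes with a hydrophobic segment 18% and 7.67%. Among the sorting receptors and adaptors, Dab2 (-2.02), Apbb3 (-1), Appbp2 (-0.93), Vps35 (-0.83), Apbb1 (-0.82), Klc1 (-0.73) and Gga3 (-0.62) passed downward. Dab1 (0.83) and Mapk8ip1 (0.73) of that list passed upward. In the degradation and transport list Clu (-0.97) and Apoe (-0.79) passed downward and Lrp1 (1.55) upward. The difference between treatments was not tested for these lists as wholes.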
